A study of Mus musculus with 6 samples.

Results

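The genes described here are 10 markers of pericytes and other mural cells, the cells that wrap blood vessels: Kcnj8, Abcc9, Pdgfrb, Rgs5, Higd1b, Ndufa4l2, Cspg4, Mcam, Tagln and Vtn. They were picked by name with earlier results of these arrays in view, for their contrast between adult and young mice and for its contrast with smooth muscle genes, so their own differences are given as a description with no test. The arrays carried 11 probes for these genes (2 for Mcam) among 55681 probes. Each of the 10 genes was well above background on 3 of 3 adult and 3 of 3 young arrays, and so all were among the 32068 genes tested.

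The samples were satellite cells, the resident stem cells of muscle fibres, taken by sorting from skeletal muscle of male C57BL/6 mice. The adult group held 3 samples from mice of 6 months, and the young group held 3 samples from mice of 3, 2 and 3 months for replicates 1, 2 and 3. Neither group carries a treatment or an altered allele in the labels. The sort kept cells with integrin alpha7 and CD34 on their surface and discarded cells with CD31, CD45, CD11b or Sca1, and the RNA was amplified before it was labelled and put on single-colour Agilent arrays. The labels name the samples biological replicates without giving the number of mice in each, so every p-value measures the spread between these samples.

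Pericytes sit on capillaries and smooth muscle cells on larger vessels. Endothelial cells are known to recruit and keep pericytes by secreting PDGF-B, which binds the receptor Pdgfrb on the pericyte, and both kinds of mural cell set vessel tone through potassium channels and receptors coupled to G proteins. Pericytes share some genes with smooth muscle but hold less of its contractile machinery. The gate named no mural antigen for removal, and integrin alpha7 is also known from vascular smooth muscle, but the cells also had to carry CD34. Whether mural cells passed the gate was not tested.

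All levels are log2 of the background-subtracted signal relative to the 75th percentile of the array, so a level of 0 equals that percentile. Differences are adult minus young. A level is set against the same probe on other arrays, except in summed levels, level classes and comparisons of probe brightness. Bright probes weigh most in a sum. Between 47554 and 49957 probes were well above background on the adult arrays and between 41528 and 45926 on the young arrays. The satellite cell marker Pax7 stood at 3.66, 3.51 and 3.05 on the adult arrays and at 3.89, 3.44 and 3.92 on the young arrays, with overlap. Over all genes, limma with Benjamini-Hochberg adjustment at 0.05 called 9134 of 32068 (28.5%), of which 6426 (20.0%) were higher and 2708 (8.44%) lower in adult. That split became 3445 higher and 8809 lower with median scaling, and 2867 and 2750 with quantile normalization. It was 7887 and 1784 with scaling on the probes that every array measured above background, and 4422 and 4089 with the series matrix values. The median difference of all genes was 0.30 here, -0.24 with median scaling and -0.06 with quantile normalization. In 4 level classes of equal size, the dimmest had a median of 1.44 and the brightest -0.31. In the dimmest class 32.0% of genes were called higher and 0.786% lower, and in the brightest 10.3% and 18.9%. Each count below is given beside the same share over all genes, which is not matched for level.

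The 10 genes parted into 6 whose adult arrays all lay above all young arrays (Kcnj8, Abcc9, Pdgfrb, Higd1b, Rgs5 and Ndufa4l2) and 4 whose groups overlapped (Cspg4, Mcam, Tagln and Vtn). Of all genes tested, 34.0% had every adult array above every young array. Nothing is read from that share, since this contrast chose the genes. The differences of the 10 genes had a median of 1.85, against a median of 0.30 over all genes, and 9 of the 10 were above 0, as were 59.4% of all genes. Summed on the linear scale, in multiples of each array's 75th percentile, the 6 genes reached 21.4, 12.4 and 22 on adult arrays 1, 2 and 3, against 5.96, 3.09 and 3.29 on young arrays 1, 2 and 3. In RNA from a sorted population, fewer cells of a type and less RNA in each such cell cannot be told apart.

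**Figure D1:**
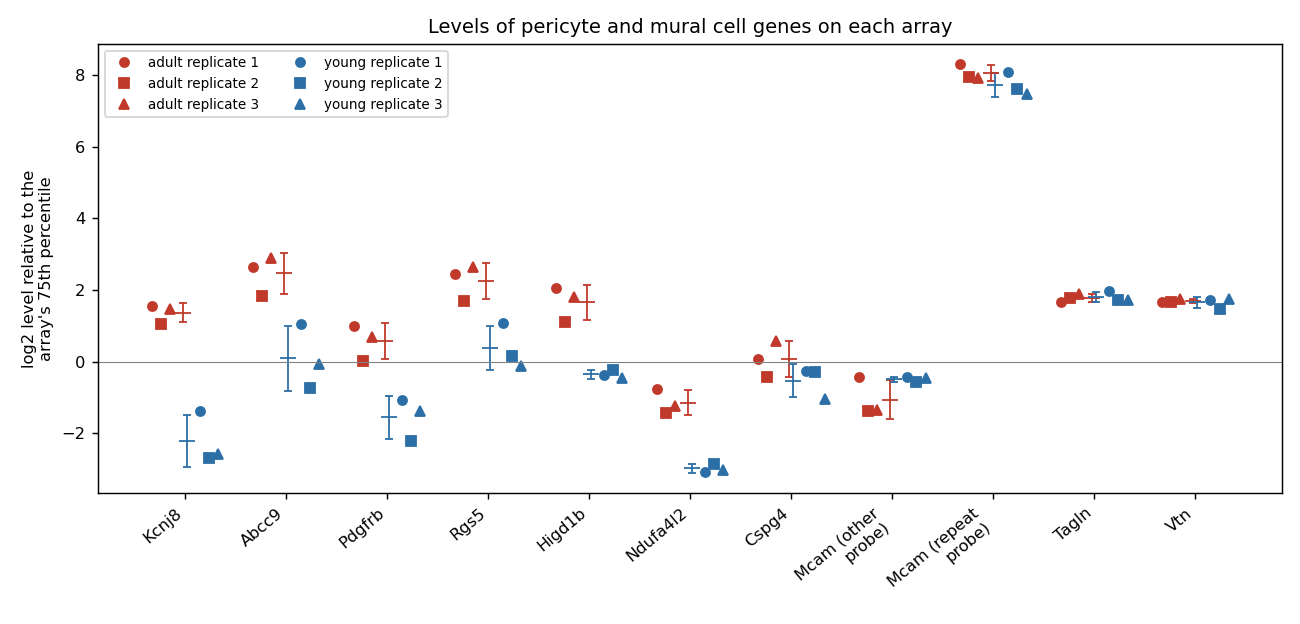
Level of each gene (log2 relative to the 75th percentile of the array) on 3 adult arrays (red, left) and 3 young arrays (blue, right), with 1 symbol for each replicate and the group mean ± SD. For Kcnj8, Abcc9, Pdgfrb, Rgs5, Higd1b and Ndufa4l2 every red point lies above every blue point, and for Cspg4, both Mcam probes, Tagln and Vtn the colours overlap.

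Kcnj8 and Abcc9 encode the pore (Kir6.1) and the regulatory sulfonylurea receptor (SUR2) of the ATP-sensitive potassium channel of vascular mural cells. Kcnj8 had levels of 1.54, 1.06 and 1.48 on adult arrays 1, 2 and 3, against -1.39, -2.70 and -2.57 on young arrays 1, 2 and 3. The lowest adult array lay 2.45 above the highest young array, the widest gap among the 10 genes. Kcnj8 averaged 1.36 ± 0.26 in adult and -2.22 ± 0.72 in young (SD, n = 3 each), a difference of 3.58 ± 0.39 (SE) or 12-fold. Abcc9 had levels of 2.65, 1.83 and 2.90 on the adult arrays, against 1.06, -0.73 and -0.06 on the young arrays. Its groups did not overlap, and young replicate 1 came nearest to the adult arrays. Abcc9 averaged 2.46 ± 0.56 in adult and 0.09 ± 0.91 in young (SD, n = 3 each), a difference of 2.37 ± 0.52 (SE) or 5.17-fold.

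The 2 channel genes are next to each other in the order of protein-coding genes on chromosome 6, both on the minus strand. In mm9, the build of the files, their probes lie at chr6:142513487-142513546 for Kcnj8 and chr6:142536920-142536979 for Abcc9. Since these neighbours both stood higher in adult, the 250 bases before each start are shown, on the gene's strand, from RefSeq on GRCm38.p6 at chr6:142571615-142571864 for Kcnj8 and chr6:142702275-142702524 for Abcc9. Capitals mark TGGGAA, the core of the site of RBPJ, the DNA-binding partner of Notch receptors, whose signalling is known to maintain mural cells.
Kcnj8: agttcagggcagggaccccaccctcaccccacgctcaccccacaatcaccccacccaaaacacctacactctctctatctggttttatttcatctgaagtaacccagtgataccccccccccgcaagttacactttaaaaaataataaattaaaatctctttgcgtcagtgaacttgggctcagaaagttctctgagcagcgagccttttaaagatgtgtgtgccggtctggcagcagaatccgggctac
Abcc9: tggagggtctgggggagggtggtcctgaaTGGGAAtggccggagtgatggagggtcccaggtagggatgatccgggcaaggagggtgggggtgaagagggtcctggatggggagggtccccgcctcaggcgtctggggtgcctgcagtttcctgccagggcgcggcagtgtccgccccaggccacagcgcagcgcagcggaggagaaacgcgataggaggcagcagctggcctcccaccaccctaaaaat
Both strands were searched. The Abcc9 window held TGGGAA 221 bases before the start, overlapped on the other strand by CATTCC, the MCAT motif of TEAD factors, and the Kcnj8 window held neither these letters nor TATAAA nor a CArG box, the site of serum response factor. Of 32851 promoters of this length, 21.6% held TGGGAA and 12.6% held CATTCC. RefSeq promoters were matched for 6 of the 10 genes, of which 2, Abcc9 and Vtn, held TGGGAA. The window of the smooth muscle actin gene Acta2, which was lower in adult, also held TGGGAA, 27 bases before the start. It held CATTCC on the other strand, 146 bases before the start.

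Paralogues of the channel subunits, known from pancreatic beta cells, did not pass the test. Kcnj11, the Kir6.2 pore, had levels of -0.82, -0.77 and -0.75 on the adult arrays and -1.18, -1.22 and -1.30 on the young arrays by its brighter probe, a difference of 0.45 ± 0.16 (SE, limma Benjamini-Hochberg adjusted p = 0.0768). Its dimmer probe differed by 1.99. Abcc8, the SUR1 receptor, differed by 0.33 ± 0.17 (SE, limma Benjamini-Hochberg adjusted p = 0.171), and its second probe, above background on 1 of 3 young arrays, by 1.32. The probes of each paralogue thus gave unlike sizes in one direction.

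Pdgfrb is the receptor through which PDGF-B acts on pericytes. Pdgfrb had levels of 1.0, 0.02 and 0.70 on adult arrays 1, 2 and 3, against -1.06, -2.22 and -1.39 on young arrays 1, 2 and 3 (probe at chr18:61244606-61244665, mm9, plus strand). The groups did not overlap, and replicate 2 was the lowest array of both. Pdgfrb averaged 0.58 ± 0.51 in adult and -1.55 ± 0.60 in young (SD, n = 3 each), a difference of 2.13 ± 0.40 (SE) or 4.38-fold. Of 6 measured genes among 8 PDGF ligands, the other receptor and angiopoietin genes with their receptor Tek, 0 were higher and 1 lower (all genes: 20.0% higher, 8.44% lower). The ligand Pdgfa fell by 0.81 on the log2 scale in adult (SE 0.21, limma Benjamini-Hochberg adjusted p = 0.0386), a call lost with any 1 array left out. Pdgfb, the ligand of endothelial cells, differed by -0.16 ± 0.34 (SE, limma Benjamini-Hochberg adjusted p = 0.713). The other receptor, Pdgfra, was above background on 0 of 6 arrays.

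Rgs5 encodes a regulator of G protein signalling that shortens the signal of vasoactive receptors and is a widely used pericyte marker. Rgs5 had levels of 2.44, 1.69 and 2.63 on the adult arrays, against 1.08, 0.17 and -0.11 on the young arrays (probe at chr1:171623021-171623080, mm9, plus strand). Its groups stood 0.60 apart at their nearest arrays, adult replicate 2 and young replicate 1. Rgs5 averaged 2.25 ± 0.50 in adult and 0.38 ± 0.62 in young (SD, n = 3 each), a difference of 1.87 ± 0.41 (SE) or 3.65-fold. Family members went the other way or did not pass. Rgs2 fell by 0.92 on the log2 scale in adult (SE 0.19, limma Benjamini-Hochberg adjusted p = 0.0269) and Rgs8 fell by 1.67 (SE 0.27, limma Benjamini-Hochberg adjusted p = 0.0206).

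Higd1b and Ndufa4l2 encode small mitochondrial proteins, both known as pericyte markers. Higd1b belongs to a family whose relative Higd1a binds respiratory complexes, and Ndufa4l2 resembles the complex IV subunit Ndufa4 and is induced by hypoxia. Higd1b had levels of 2.05, 1.10 and 1.81 on the adult arrays, against -0.36, -0.22 and -0.46 on the young arrays (probe at chr11:102699294-102699353, mm9, plus strand). The young arrays lay close together, and all were below the adult ones. Higd1b averaged 1.65 ± 0.50 in adult and -0.35 ± 0.12 in young (SD, n = 3 each), a difference of 2.00 ± 0.29 (SE) or 4.01-fold. Ndufa4l2 had levels of -0.75, -1.44 and -1.24 on the adult arrays, against -3.07, -2.85 and -3.01 on the young arrays (probe at chr10:126954149-126954208, mm9, plus strand). Its groups did not overlap, and the young arrays again lay close together. Ndufa4l2 averaged -1.14 ± 0.35 in adult and -2.98 ± 0.11 in young (SD, n = 3 each), a difference of 1.84 ± 0.24 (SE) or 3.57-fold, which became 0.91 with the series matrix values.

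The widely expressed paralogues of these mitochondrial genes ran in the opposite direction. Ndufa4 had levels of -0.27, 0.52 and -0.03 on the adult arrays, against 2.15, 2.23 and 1.84 on the young arrays, and fell by 2.0 (SE 0.27, limma Benjamini-Hochberg adjusted p = 0.0167). Higd1a had levels of -0.73, 0.04 and -0.33 on the adult arrays, against 1.38, 1.19 and 0.96 on the young arrays, and fell by 1.52 (SE 0.26, limma Benjamini-Hochberg adjusted p = 0.0223). No adult array of either gene overlapped a young array. Both kept their sign in the other 19 settings with a test, and both passed under each of 5 other scalings or background corrections. With 1 array left out Ndufa4 passed in 4 of 6 fits and Higd1a in 2 of 6. Of 13 measured paralogues of the 10 genes, 0 were higher and 5 lower, or 38.5% against 8.44% of all genes, with a median of -0.42. That count of 5 became 0 without adult replicate 1 or adult replicate 3, 1 without adult replicate 2 or young replicate 1, and 3 without young replicate 3. The count of 0 higher became 1 with the series matrix values, with the mean over probes and without the filter on dim probes. It was also 1 with scaling on the probes that every array measured above background and with the trend and robust variance model.

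Other genes of the hypoxia response showed no common direction. Of 14 measured, 1 was higher and 2 were lower (all genes: 20.0% and 8.44%), with a median of -0.09. Ankrd37 rose by 1.39 ± 0.37 (SE, limma Benjamini-Hochberg adjusted p = 0.0418) on the log2 scale, while the glycolytic enzymes Pgk1 and Ldha fell by 1.38 and 0.78 (limma Benjamini-Hochberg adjusted p = 0.0266 and 0.0344). None of these calls held in every fit with 1 array left out: Ankrd37 and Ldha passed in 0 of 6 and Pgk1 in 1 of 6.

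Cspg4 (NG2) and Mcam (CD146) are surface proteins used to sort pericytes. Cspg4 had levels of 0.07, -0.43 and 0.58 on the adult arrays, against -0.26, -0.28 and -1.05 on the young arrays (probe at chr9:56746627-56746686, mm9, plus strand). Adult replicate 2 lay below young replicates 1 and 2, so the groups overlapped. Cspg4 averaged 0.07 ± 0.50 in adult and -0.53 ± 0.45 in young (SD, n = 3 each), a difference of 0.61 ± 0.35 (SE), which was 0.07 with median scaling. Without adult replicate 2 its groups no longer overlapped, which made 7 such genes of 10.

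Mcam was the single gene of the 10 with more than 1 probe, and its probes disagreed. The brighter one, which represents the gene by the rule of the brightest probe, lies at chr9:43950664-43950723 (mm9, plus strand) and the dimmer one at chr9:43949385-43949444. Shown are 30 bases of the brighter probe from position 14 to 43 of its 60 and the first 30 bases of the dimmer probe. Their letters differ in kind. Capitals mark an unbroken run of alternating G and T.
Mcam, brighter probe: agGTGTGTGTGTGTGTGTGTGTatacatat
Mcam, dimmer probe: atttgtagttgaagttaagtcagataagct
The brighter probe had levels of 8.29, 7.93 and 7.92 on the adult arrays, against 8.09, 7.61 and 7.46 on the young arrays. The dimmer probe had levels of -0.43, -1.39 and -1.36 on the adult arrays, against -0.44, -0.56 and -0.45 on the young arrays. The groups overlapped on both probes, with a difference of 0.33 ± 0.24 (SE) on the brighter and -0.57 ± 0.31 (SE) on the dimmer probe. Which sign Mcam took therefore depended on the probe, and on the brighter probe also on the scaling, being -0.21 with median scaling and -0.04 with quantile normalization.

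The brighter Mcam probe had rank 142 by mean level among the 55642 probes with a value on every array. Of all probes, 91 held a run of at least 14 alternating G and T letters, and their median level was 8.05 (quartiles 7.07 and 8.5). The other 55590 probes had a median of -2.16. A mean level above 7 was reached by 70 of the 91 repeat probes and by 191 of the other 55590. The repeat probes shared a small difference in one direction, with 89 of 91 above 0 and a median of 0.46, against 0.40 over the other probes. Whether the bright Mcam signal comes from the repeat was not tested. None of the other 9 genes has a probe with such a run.

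**Figure D2:**
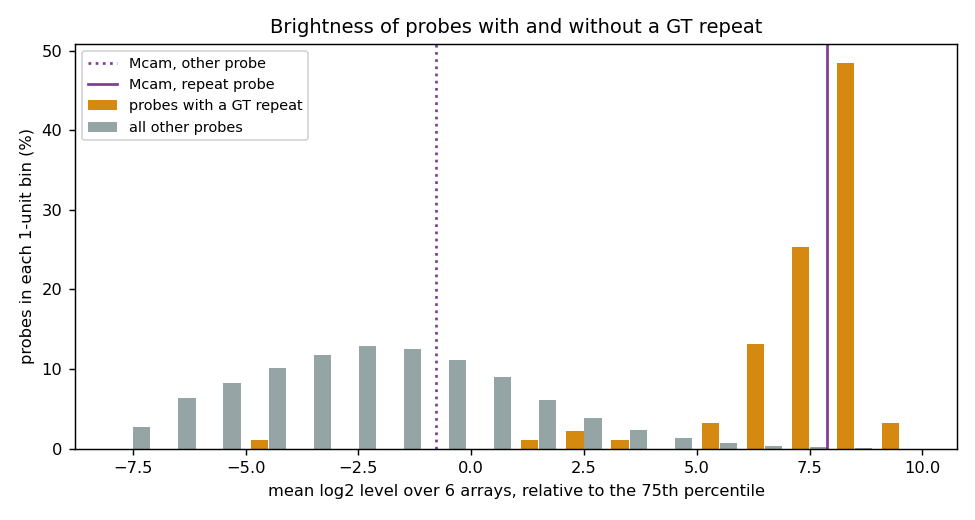
Share of probes (%) in each bin of mean log2 level over 6 arrays, relative to the 75th percentile, for the 91 probes with a run of 14 or more alternating G and T (orange) and for all other probes (grey). The solid line marks the brighter Mcam probe at 7.88, inside the peak of the repeat probes, and the dotted line marks the dimmer Mcam probe among the others.

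Tagln (SM22 alpha) binds actin in smooth muscle and in some pericytes. Tagln had levels of 1.65, 1.77 and 1.88 on the adult arrays, against 1.97, 1.73 and 1.71 on the young arrays (probe at chr9:45738097-45738156, mm9, minus strand). The values interleaved, with young replicate 1 highest of the 6 arrays and adult replicate 1 lowest. Tagln averaged 1.77 ± 0.11 in adult and 1.80 ± 0.14 in young (SD, n = 3 each), a difference of -0.03 ± 0.18 (SE). That sign turned with other scalings, to 0.18 with quantile normalization and 0.23 with the series matrix values, against -0.58 with median scaling.

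The smooth muscle contractile genes set beside the 6 higher genes did not share their direction. Of 16 listed, 15 were measured, 6 with a difference above 0 and 9 below 0, with a median of -0.06. Acta2, smooth muscle actin, had levels of 1.55, 1.81 and 1.44 on the adult arrays, against 3.76, 3.52 and 3.83 on the young arrays. It was lower on every adult array, by 2.10 ± 0.20 (SE, 4.30-fold), and by 2.09 and 2.21 within the 2 rows of arrays on the slide. Smtn, smoothelin of contractile smooth muscle, stood at 1.52, 1.21 and 0.75 on the adult arrays, against 2.07, 2.02 and 2.37 on the young arrays. Its second probe differed by -0.95, beside -1.0 for the first. Myh11, the smooth muscle myosin heavy chain, had levels of 0.77, 0.81 and 0.51 on the adult arrays, against 0.71, 0.07 and 0.04 on the young arrays. The groups overlapped, and its difference of 0.42 ± 0.25 (SE) became -0.12 with median scaling. Cnn1, Actg2, Myl9, Mylk and Csrp1 differed by -0.06 to 0.25 with overlap, and of the 15 genes Tpm1 alone had every adult array above every young array (34.0% of all genes). Every adult array lay below every young array for 5 of the 15 (21.6% of all genes), which were Acta2, Smtn, Cald1, Des and Pln, the last 3 with differences of -0.52, -0.63 and -0.49. Acta2 is also known from activated fibroblasts, and which cells the RNA of these 15 genes came from was not tested.

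**Figure D3:**
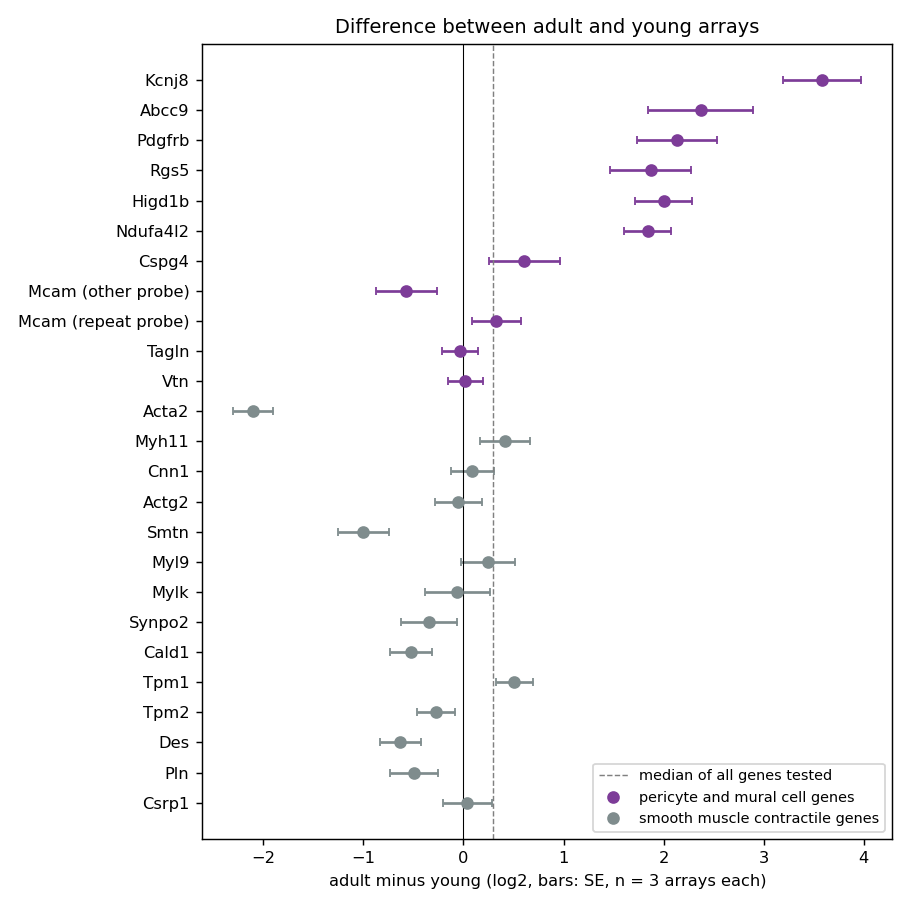
Adult minus young difference (log2) with its SE, n = 3 arrays in each group, for the pericyte and mural cell genes (purple) and smooth muscle contractile genes (grey). The dashed line marks the median of all genes tested at 0.30. Kcnj8 through Ndufa4l2 lie at 1.84 to 3.58, while most contractile genes lie near 0 and Acta2 lies at -2.10. Myocd, above background on 2 of 3 adult and 1 of 3 young arrays, is not drawn.

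Vtn encodes vitronectin, a secreted adhesion protein made by pericytes of the brain. Its probe was printed on 10 spots of each array, with an SD between spots of 0.0372 to 0.0663 on the adult arrays and 0.0401 to 0.0556 on the young arrays, with 8 to 10 spots used on each. Vtn had levels of 1.65, 1.65 and 1.74 on the adult arrays, against 1.73, 1.48 and 1.75 on the young arrays, with full overlap. It averaged 1.68 ± 0.05 in adult and 1.66 ± 0.15 in young (SD, n = 3 each), a difference of 0.02 ± 0.18 (SE), which was -0.52 with median scaling. The 60 bases of the probe map across 273 bases of chromosome 11, at chr11:78315393-78315665 (mm9, plus strand). Among the integrin chains listed with vitronectin, Itgb3, the beta3 chain that binds it, rose by 1.42 ± 0.18 (SE, limma Benjamini-Hochberg adjusted p = 0.0151). Itgb1, the beta1 chain, fell by 0.88 (SE 0.19, limma Benjamini-Hochberg adjusted p = 0.0291). With 1 array left out Itgb3 passed in 3 of 6 fits and Itgb1 in 0 of 6.

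Among the adult arrays, replicate 2 was the lowest for each of the 6 higher genes and for Cspg4, but not for Mcam, Tagln or Vtn. It was lowest for 42.4% of all genes with every adult array above every young array and for 29.9% of all genes. It lay between 0.42 and 0.82 below the nearest other adult array for 5 of the 6, and 0.20 below for Ndufa4l2. Young replicate 1 was the highest young array for 7 of the 10 genes and 4 of the 6, against 35.6% of all genes. Young replicate 2, from mice of 2 months, was the highest young array for 53.5% of all genes with every adult array above every young array, but for 2 of the 6 (Higd1b and Ndufa4l2). Endothelial markers showed a like order in the adult group, with adult replicate 2 lowest for 12 of 14, while satellite cell markers were lowest on adult replicate 3 for 13 of 14. Whether the number of mural or endothelial cells in each sort sets this order was not tested.

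Other markers of pericytes and mural cells, listed apart from the 10, were more often higher than lower. Of 20 listed, 15 were measured, 7 of them higher (46.7%, against 20.0% of all genes) and 1 lower (6.67%, against 8.44%), with a median of 0.76. Enpep, aminopeptidase A, had levels of -2.53, -3.49 and -3.29 on the adult arrays, against -5.78, -4.74 and -5.25 on the young arrays, of which 2 were above background, and rose by 2.15 ± 0.38 (SE, limma Benjamini-Hochberg adjusted p = 0.0224). Ednra, the endothelin A receptor, had levels of -2.42, -3.30 and -2.80 on the adult arrays, against -4.22, -4.69 and -4.87 on the young arrays, and rose by 1.75 ± 0.30 (SE, limma Benjamini-Hochberg adjusted p = 0.0224). Both lie in the dimmest of the 4 level classes, where 32.0% of genes were higher. Cox4i2, a complex IV subunit isoform found in pericytes, rose by 1.33 ± 0.22 (SE, limma Benjamini-Hochberg adjusted p = 0.0218). Cd248, endosialin of mural cells and fibroblasts, rose by 0.94 ± 0.23 (SE, limma Benjamini-Hochberg adjusted p = 0.0341). Cd248 was the single one of the 7 in the brightest class, where 10.3% of genes were higher.

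In the same list Lamc3, a laminin chain, fell by 1.12 (SE 0.17, limma Benjamini-Hochberg adjusted p = 0.0193). Notch3, the Notch receptor of mural cells that satellite cells also make, differed by -0.15 ± 0.20 (SE, limma Benjamini-Hochberg adjusted p = 0.571). The 5 markers that did not pass the filter on dim probes included Anpep, above background on 1 of 3 adult and 0 of 3 young arrays. The count of 7 became 3 with median scaling, 1 with quantile normalization or the series matrix values, 0 without adult replicate 1, adult replicate 3 or young replicate 3, and 1 without adult replicate 2 or young replicate 1. The summed level of the list overlapped between the groups, at 69.8 to 98.6 on the adult arrays and 81.7 to 95.8 on the young arrays. Most of that sum came from Notch3 and S1pr3, at mean levels of 5.70 and 4.48, so it tells little of the dimmer markers, the 7 higher ones among them.

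Among 10 measured transcription factors of mural cells, 2 were higher and 0 lower, a share of 20.0% that equals the 20.0% of all genes. Mef2c, which is also a muscle factor, had levels of -1.26, -1.44 and -0.92 on the adult arrays, against -2.79, -3.21 and -2.63 on the young arrays, and rose by 1.67 ± 0.25 (SE, limma Benjamini-Hochberg adjusted p = 0.0187). Ebf1, a factor of pericytes, B cells and fat progenitors, rose by 1.27 ± 0.36 (SE, limma Benjamini-Hochberg adjusted p = 0.0457), a call lost with any 1 array left out. Tbx18, a mural cell factor, was above background on 2 of 3 adult and 0 of 3 young arrays and was not tested.

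Markers of the other cells a sort could carry were read beside these genes. Of 14 endothelial markers 1 was higher and 0 lower (all genes: 20.0% and 8.44%), with a median of -0.23 and a summed level of 21.8 to 32.2 on the adult arrays against 22.4 to 33.9 on the young arrays. Tek, at a mean level of 4.01, was the brightest of them and weighed most in that sum. Pecam1, the CD31 used to discard endothelial cells, had levels of 1.08, -0.49 and 0.15 on the adult arrays, against 0.71, 0.74 and 1.71 on the young arrays, and was above background on all of them (difference -0.81 ± 0.48 SE, limma Benjamini-Hochberg adjusted p = 0.222). The single endothelial call was Flt1, a VEGF receptor that rose by 0.94 ± 0.19 (SE, limma Benjamini-Hochberg adjusted p = 0.0266). Flt1 passed in 1 of 6 fits with 1 array left out, and its second probe differed by 0.85 with overlap.

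Of 8 measured glial markers 0 were higher or lower by limma with Benjamini-Hochberg adjustment (all genes: 20.0% and 8.44%), and their summed level ran from 4.09 to 16.9 on the adult arrays and from 4.68 to 14 on the young arrays. Of 11 leukocyte markers 3 were higher (27.3%, against 20.0% of all genes) and 0 lower (8.44% of all genes), and without Itgam, whose probe was among the brightest, the other 10 summed to 12.6 to 14 on the adult arrays and 8.27 to 9.83 on the young arrays. Csf1r, at a mean level of 3.19, was the brightest of these 10 and weighed most in that sum. Tyrobp, an adaptor of myeloid cells, was above background on 3 of 3 adult and 0 of 3 young arrays. Its levels were -2.13, 0.40 and 0.48 on the adult arrays, against -5.85, -6.53 and -6.14 on the young arrays. With a floor set for the young arrays it was at least 31.2-fold higher in adult (limma Benjamini-Hochberg adjusted p = 0.0157). That bound sets the adult mean against the higher, on each young array, of the probe's own signal and the lowest signal of any probe well above background. A higher floor would give a smaller fold. Ptprc, the CD45 of the gate, differed by 0.49 ± 0.34 (SE, limma Benjamini-Hochberg adjusted p = 0.278). Of 14 satellite cell markers 0 were higher and 7 lower (all genes: 20.0% and 8.44%), and their sum was 159 to 208 on the adult arrays and 228 to 244 on the young arrays. All 7 lower ones lie in the brightest level class, where 18.9% of genes were lower. With 1 array left out the count of 7 became 0 to 4. Among the 14 markers are the genes of the antigens that the gate kept. Itga7 differed by -1.08 ± 0.19 (SE, limma Benjamini-Hochberg adjusted p = 0.023) and Cd34 by -0.18 ± 0.21 (SE, limma Benjamini-Hochberg adjusted p = 0.522). The part of leukocyte and satellite cell RNA in the difference of the mural genes was not tested.

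**Figure D4:**
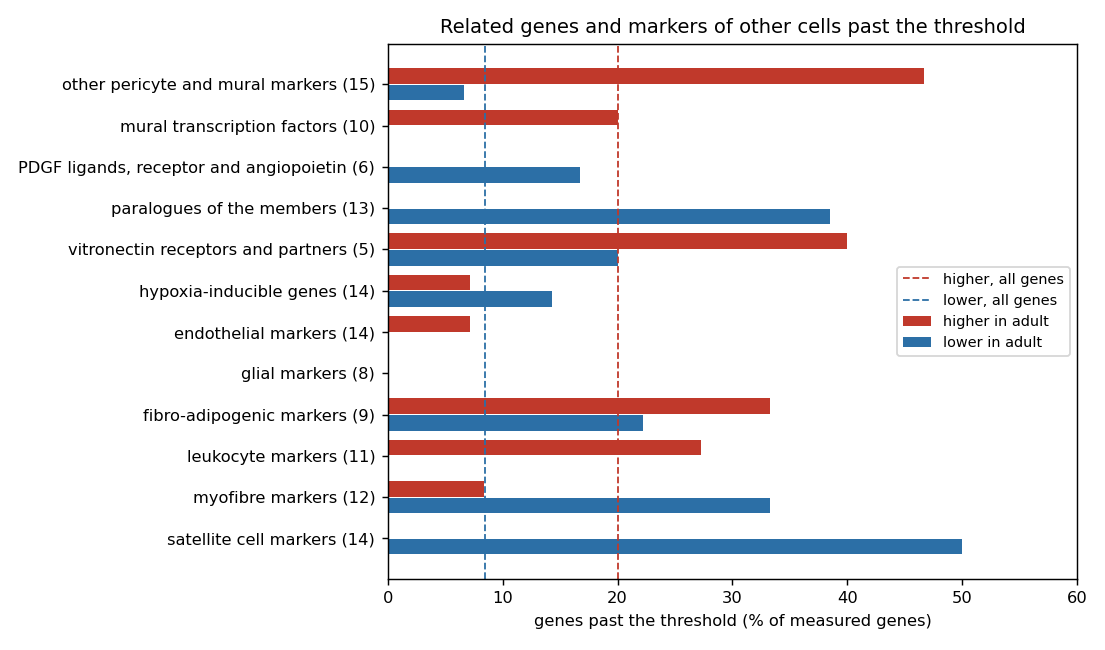
Share (%) of the measured genes of each list, with its number in brackets, that limma called higher (red) or lower (blue) in adult at an adjusted p of 0.05. Dashed lines mark the same shares over all genes, 20.0% higher and 8.44% lower. Other pericyte and mural markers reach 46.7% higher, and paralogues of the 10 genes and satellite cell markers reach 38.5% lower and 7 of 14 lower.

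Under 5 other scalings or background corrections Kcnj8 kept the largest difference of the 10 genes, at 3.01 to 3.72, and Abcc9 the next, at 1.83 to 2.51. The order of the others changed with the setting: Higd1b lay above Pdgfrb with normexp background correction (2.00 and 1.86), quantile normalization (2.07 and 2.03) and the series matrix values (2.10 and 1.80). Relative to the median of all genes in the same setting, the median of the 10 differences was 1.26 to 1.8 over 13 other settings, against 1.55 with the 75th percentile. Within the 2 rows of arrays on the slide, which hold adult replicate 1 with young replicates 1 and 2, and adult replicates 2 and 3 with young replicate 3, the 6 higher genes gave differences from 1.81 to 3.59 in the first row and from 1.67 to 3.84 in the second. Tagln, Vtn and Mcam changed sign between scalings, so no direction is given for them.

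**Figure D5:**
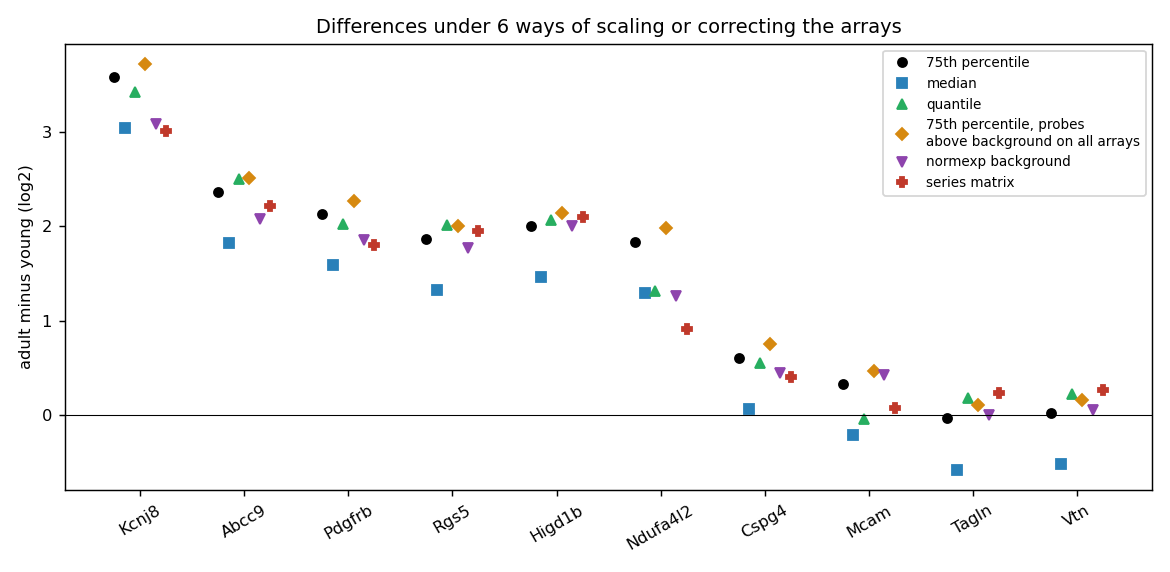
Adult minus young difference (log2) of each gene under 6 ways of scaling or correcting the arrays. Kcnj8 lies at 3.01 to 3.72 under all 6, Ndufa4l2 spreads from 0.91 to 1.98, and Mcam, Tagln and Vtn lie on both sides of 0.

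The genes with the level profile most like a given one were found by the root mean square distance between profiles over the 6 arrays, each centred on its mean, among 17346 genes with a symbol. For Kcnj8 these were Ankrd34c (0.238), Olfr509 (0.262) and Rhag (0.270), none of which was well above background on any young array. For Pdgfrb the nearest was Tox2 (0.189), above background on all arrays, with levels of 0.58, -0.06 and 0.71 on the adult arrays and -0.95, -2.31 and -1.24 on the young arrays, followed by Olfr1261 (0.215) and Greb1l (0.266). For Tagln they were Zfp936 (0.0364), Zfp937 (0.0487) and ND1 (0.0496), whose levels differed little between any arrays. The channel partner Abcc9 came 288th among all genes by distance to Kcnj8 (0.659), before Pdgfrb, Rgs5, Higd1b and Ndufa4l2. That rank counts genes not above background on the young arrays, so it does not tell how many genes follow Kcnj8.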

How the data were processed

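RNA of 3 adult and 3 young satellite cell samples was measured on 6 arrays of 1 slide, 1 array for each sample. Per the file headers, the authors deposited spot intensity values read by Feature Extraction 10.7.3.1: a background-subtracted and detrended signal, a mean signal and a local background. The deposited series matrix holds log2 values, and neither labels nor headers tell how they were made. Each of its columns had a median of 7.56, and no value was over 0.000106 away from normexp correction (offset 50) followed by quantile normalization, which settles its scale and direction.

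Control spots (3671 of 62976) and 895 outlier spots were dropped, no spot was saturated (0), and the spots of a probe were averaged. Levels were log2 processed signal minus the 75th percentile of the array. A probe had to be well above background on 3 arrays or more, and the brightest probe stood for its gene. RefSeq (GRCm38.p6) gave current symbols through accessions for 26300 probes, through symbols for 2044 and through synonyms for 355, while the other 26982 carry the name in the files. Coordinates are the files' own, on mm9. No mm9 annotation was used here, so exons and UTRs are not named.

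The comparison was fitted with lmFit and eBayes of limma 3.58.1 (R 4.3.3, files read with the data.table package, version 1.17.8) over 32068 genes, with Benjamini-Hochberg adjustment and a threshold of 0.05. The SE is that of this fit, which was tested on simulated arrays. The 10 genes and the 13 lists beside them were chosen with earlier results of these data known. The text names the 10 genes with every probe, from each list up to 4 genes past the threshold in each direction by smallest p, some of the first 3 of each cell type list, the paralogues Kcnj11, Abcc8 and Ndufa4, the smooth muscle genes Acta2 and Myh11, and the 3 nearest profiles of Kcnj8, Pdgfrb and Tagln. Other smooth muscle genes, Tbx18, Pdgfb, Pdgfra, Tek, S1pr3, Csf1r and Cd34 were named after their values were seen. One gene that the rule takes is not reported here. There were 21 alternatives: other scalings and background corrections, other filters, the mean over probes, another variance model, array weights, blocks for replicate number or array row, each row alone, and each array left out. Samples that share a number did not deviate together from their group means (correlations of -0.00226, -0.0933 and -0.142). That cannot tell whether they were collected or processed in pairs. The labels state no pairing, so the main fit has no block for the number. With 3 arrays a group, precision is limited by their number.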

Additional observations from a re-analysis of the deposited data

How the results depend on the processing

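The median difference of the 10 genes, 1.85, was 1.51 with normexp background correction, 1.31 with median scaling and 1.35 with the series matrix values, and 1.71 to 2.07 with 1 array left out. The number with every adult array above every young array was 6 or 7 in each setting that used both rows of arrays. The calls over all genes, 9134, became 5617 with quantile normalization, 5954 with array row as a block and 297 to 7680 with 1 array left out. The calls among 128 listed genes, 42, became 25 with quantile normalization and 0 to 28 with 1 array left out. With the replicate block limma called 0 of all genes (12724 at an unadjusted p under 0.05) and 0 listed genes. The labels do not say whether the replicate numbers pair the samples. Calls higher fell to 3445 with median scaling and 2867 with quantile normalization, against 6426. Calls lower, 2708, were 4108 with normexp, 8809 with median scaling, 1784 with scaling on the probes that every array measured above background, 4089 with the series matrix values, 4431 with the trend and robust variance model and 1200 with the array row block. The 42 listed calls kept their sign in every setting with a test. Using the Mcam probe without the repeat, a choice made after seeing the data, gave 8 of 10 differences above 0. With 1 slide, no block for the slide was possible. Fewer samples enter each fit with an array left out, and the cause of the other changes was not tested. Signal over background limits the dim genes, Ndufa4l2 among them.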

Other observations

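Markers of fibro-adipogenic progenitors, cells of the muscle interstitium that the Sca1 step of the sort removes, moved in both directions. Of 9 measured, 3 were higher and 2 lower in adult (all genes: 20.0% and 8.44%). Pi16, a marker of adventitial fibroblasts around vessels, had levels of -0.69, 0.08 and 0.21 on the adult arrays, against -1.62, -1.10 and -1.74 on the young arrays, and rose by 1.35 ± 0.32 (SE, limma Benjamini-Hochberg adjusted p = 0.0332), while Col3a1, a fibrillar collagen, fell by 1.13 (SE 0.29, limma Benjamini-Hochberg adjusted p = 0.0366). Their summed level was 34.9 to 50.3 on the adult arrays and 82.3 to 89.4 on the young arrays. Col3a1, the brightest of the 9 at a mean level of 5.44, weighed most in that sum, which does not give the direction of the others. With 1 array left out Pi16 passed in 1 of 6 fits and Col3a1 in 0 of 6.

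Of 12 markers of muscle fibres, 1 was higher (8.33%, against 20.0% of all genes) and 4 were lower (33.3%, against 8.44%). Ryr1, the calcium release channel of muscle, had levels of 0.93, 0.38 and 0.47 on the adult arrays, against 1.88, 1.74 and 1.8 on the young arrays, and fell by 1.21 (SE 0.21, limma Benjamini-Hochberg adjusted p = 0.0228). It passed in 1 of 6 fits with 1 array left out.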
